A study of Mus musculus with 8 samples.

Results

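The genes described here are 39 members of the BMP and TGF-beta signalling pathways, of 18838 genes that had a symbol on the arrays. They were chosen by name for their place in the pathway and not by a measured value, but with earlier results of these data known. They comprise ligands, proteins that process or store ligands, receptors, antagonists, Smad proteins, nuclear corepressors and target genes. Of the 39, 37 passed the filter on dim probes and were tested, as were 13613 genes in all. Bmp7, a BMP ligand, passed as well above background on 1 of 8 arrays and Smad9, a receptor-regulated Smad of the BMP branch, on 0 of 8, and neither was tested.

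All samples were N31 cells, a line of neural progenitors (NPC) made from mouse embryonic stem cells, and each group had 2 arrays. The first group was W20-expressing cells 72 h after the start of reprogramming, and its control was EGFP-expressing cells at the same time. The other groups were W20-expressing NPC and, as their control, EGFP-expressing NPC, both grown in NPC medium with EGF and bFGF at 10 ng/ml each. Both 72 h groups had received Dox (40 ng/ml) throughout, with the initial 48 h spent in NPC medium and the last 24 h in GMEM with LIF at 1000 U/ml, 10% KSR, ACTH, pyruvate, amino acids and 2-mercaptoethanol. The series title speaks of bacterial proteins and faster reprogramming, and the design text asks how forced W20 expression changes gene expression. What W20 is, the vector and promoter that carry W20 and EGFP, and the gene that Dox induces are not given in the sources used here. The labels do not tell whether a group's 2 arrays stem from separate cultures, so p-values measure only a spread between arrays that may be technical.

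BMP and TGF-beta ligands are secreted dimers that bring type I and type II receptor kinases together, and the activated type I receptor phosphorylates receptor-regulated Smads. Smad1, Smad5 and Smad9 carry signals of BMP receptors, while Smad2 and Smad3 carry signals of TGF-beta and activin receptors. Both kinds enter the nucleus with Smad4, and among the genes that BMP induces are the Id genes, whose products hold back differentiation factors of the bHLH class, and Smad6, which feeds back on the pathway. In neural tissue, BMP is known for favouring astrocytes and keeping stem cells quiescent, and its antagonists for permitting neurogenesis. The arrays measured RNA, and neither Smad phosphorylation nor protein was measured.

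In the labelled cell type, 7, 7, 6 and 6 of 8 neural progenitor markers were well above background in W20 cells at 72 h, EGFP cells at 72 h, W20 NPC and EGFP NPC. Olig2 was not above background in any group, nor Fabp7 in W20 NPC. In units of each array's 75th percentile, the progenitor markers summed at 72 h to 137 to 142 with W20 and 136 to 154 with EGFP. In NPC they summed to 138 to 151 with W20 and 124 to 135 with EGFP. Of 4 endothelial markers, 1 was well above background in W20 cells at 72 h, 2 in EGFP cells at 72 h and 0 in each NPC group. Of 3 immune markers with a probe, 0 were above background in any group. Of 5 pluripotency markers with a probe, 3 were well above background in W20 cells at 72 h and 4 in each other group. Pou5f1, which encodes Oct4, was not above background in any group, nor Esrrb in W20 cells at 72 h. Mesenchymal markers were present, with 7 and 8 of 9 well above background in W20 and EGFP cells at 72 h and 8 and 9 of 9 in W20 and EGFP NPC. Their summed signal, in units of each array's 75th percentile, was 124 to 126 in W20 cells and 194.0 to 194.5 in EGFP cells at 72 h, and 135 to 136 in W20 NPC and 190.0 to 214 in EGFP NPC. It was thus lower on every W20 array, but most of this sum was Col1a2. In log2 units over the array's 75th percentile, Col1a2 had 6.32 and 6.37 with W20 at 72 h, against 6.88 and 6.92 with EGFP. In NPC it had 6.54 and 6.50 with W20, against 6.95 and 7.14. Col1a1, Col3a1 and Dcn were also lower with W20 at both stages. The brightest Acta2 probe was not lower in NPC (4.47 and 4.51 with W20, against 4.42 and 4.47), but its other probes were. Astrocyte markers, with 3 of 5 well above background in both 72 h groups and in W20 NPC and 4 of 5 in EGFP NPC, summed to 13.5 to 13.9 in W20 cells at 72 h, against 10.4 to 10.8 in EGFP cells, and to 9.34 to 9.39 in W20 NPC, against 13.5 to 13.7 in EGFP NPC. Aqp4 was below background in every group and Gfap in all but EGFP NPC. Neuron markers (2 of 5 well above background in W20 cells at 72 h, 3 in EGFP cells at 72 h and 2 in each NPC group, with Syp in no group) summed to 2.29 to 2.61 in W20 cells at 72 h, against 1.54 to 1.57 in EGFP cells, and to 0.927 to 0.946 in W20 NPC, against 1.28 to 1.35 in EGFP NPC. Both sums were thus higher with W20 at 72 h and lower with W20 in NPC, but most of the astrocyte sum was Aldoc. As log2 signal minus the array's 75th percentile, Aldoc had 3.70 and 3.66 with W20 at 72 h, against 3.25 and 3.32 with EGFP. In NPC it had 2.88 and 2.89 with W20, against 3.52 and 3.54 with EGFP. Aldh1l1 had -0.37 and -0.34 with W20 at 72 h, against -0.29 and -0.41 with EGFP, and 0.83 and 0.76 in NPC, against 0.89 and 0.83. Oligodendrocyte lineage markers, of which 4 of 6 with W20 and 5 of 6 with EGFP were well above background at 72 h, summed to 7.05 to 7.40 in W20 cells, against 5.02 to 5.74 in EGFP cells, while in NPC (3 and 4 of 6) they summed to 2.90 to 2.98 with W20 and 2.72 to 2.77 with EGFP. Olig1 was below background in every group. The part of these markers in the results below was not tested. In such bulk samples, fewer cells of a type and less RNA per cell cannot be told apart. On each array, 57.0% to 62.4% of spots passed as well above background, and within each slide the W20 arrays had fewer such spots and took other positions than the EGFP arrays, so position and W20 cannot be told apart. The median SE of a difference was 0.049 log2 units.

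Of the genes lower with W20 at both stages, Id2, Id3, Id4 and Smad6 are shown with 300 bases around their annotated start, from RefSeq with build GRCm38.p6, because these targets of the pathway fell with W20 under every alternative run. Windows were at hand for 26 of the 39 members, with 36 windows in all, and not for Id1. Capitals mark matches on either strand to GGCGCC, a GC-rich element that BMP Smads can bind, to the short Smad box CAGAC, or to the palindrome GTCTAGAC.
Smad6, chr9:64022010-64022309, minus strand: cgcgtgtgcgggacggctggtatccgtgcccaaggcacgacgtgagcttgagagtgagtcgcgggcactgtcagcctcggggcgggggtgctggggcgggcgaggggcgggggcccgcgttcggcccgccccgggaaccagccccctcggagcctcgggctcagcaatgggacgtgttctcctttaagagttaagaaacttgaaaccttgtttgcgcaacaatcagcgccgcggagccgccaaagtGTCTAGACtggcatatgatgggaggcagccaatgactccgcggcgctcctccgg
Id2, chr12:25096043-25096342, minus strand: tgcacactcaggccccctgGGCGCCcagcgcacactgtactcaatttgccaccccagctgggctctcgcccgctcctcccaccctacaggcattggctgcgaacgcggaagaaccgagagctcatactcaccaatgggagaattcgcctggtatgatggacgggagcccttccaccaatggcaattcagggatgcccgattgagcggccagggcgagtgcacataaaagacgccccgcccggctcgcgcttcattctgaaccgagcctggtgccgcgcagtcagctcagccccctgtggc
Id3, chr4:136143572-136143871, plus strand: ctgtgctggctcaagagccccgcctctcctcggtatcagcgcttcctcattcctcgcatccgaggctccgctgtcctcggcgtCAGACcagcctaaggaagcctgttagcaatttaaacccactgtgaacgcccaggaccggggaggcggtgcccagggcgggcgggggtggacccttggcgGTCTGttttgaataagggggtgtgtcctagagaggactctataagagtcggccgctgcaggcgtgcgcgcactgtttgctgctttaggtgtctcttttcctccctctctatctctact
Id4, chr13:48260866-48261165, plus strand: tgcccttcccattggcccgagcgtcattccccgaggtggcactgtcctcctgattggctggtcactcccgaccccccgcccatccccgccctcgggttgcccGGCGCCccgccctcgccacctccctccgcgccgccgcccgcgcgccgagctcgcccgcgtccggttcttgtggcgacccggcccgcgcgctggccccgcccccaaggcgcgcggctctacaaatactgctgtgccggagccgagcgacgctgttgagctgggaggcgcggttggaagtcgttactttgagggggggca
The palindrome was found in the Smad6 window, in 1 of 36 member windows and in 0.213% of 32851 windows of the same length. Id2 and Id4 had 1 GGCGCC each, which 10 of 36 member windows and 11.9% of all windows held. Id3 had 2 Smad boxes, present in 16 of 36 member windows and 49.6% of all windows. The Smad6 window held 0 Smad boxes, so the palindrome overlaps none there, and a match describes letters only. The window of the ligand Bmp4, which also fell under every alternative run, held 0 matches to any of these motifs and is not shown.

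In W20 cells, all 4 Id genes, Smad6 and Bmp4 had lower RNA than in EGFP cells, both at 72 h and in NPC. At 72 h, Id2 was 2.55-fold lower, Id3 2.18-fold, Id1 2.00-fold and Id4 1.66-fold, with Smad6 2.63-fold and Bmp4 2.54-fold lower. Of the 37 members tested at 72 h, 16 fell, 5 rose and 16 did not pass, against 24.3% of all genes called lower, 28.5% called higher and 52.8% either way (limma, adjusted p under 0.05). The NPC counts were 14 members lower, 6 higher and 17 not passing, against 23.7% of all genes lower, 31.8% higher and 55.5% either way. These NPC counts are of fits that passed, and they include Fst among the lower, though it was below background on all 4 NPC arrays, and Bmp1 among the higher, though its 2 probes differed in sign. The median log2 difference of the tested members was -0.14 at 72 h and -0.06 in NPC, against 0.03 and 0.04 over all genes. The 5 members higher at 72 h rest on small differences: 1 to 4 were called when 1 array was left out, with 1 called without W20 at 72 h replicate 1. The 6 in NPC became 3 when W20 NPC replicate 1, W20 NPC replicate 2 or EGFP NPC replicate 1 was left out. Losses were not confined to the members. Over all genes, the 3874 higher at 72 h became 2770 to 3690 with 1 array left out, and the 4330 in NPC became 3138 to 4317.

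**Figure D1:**
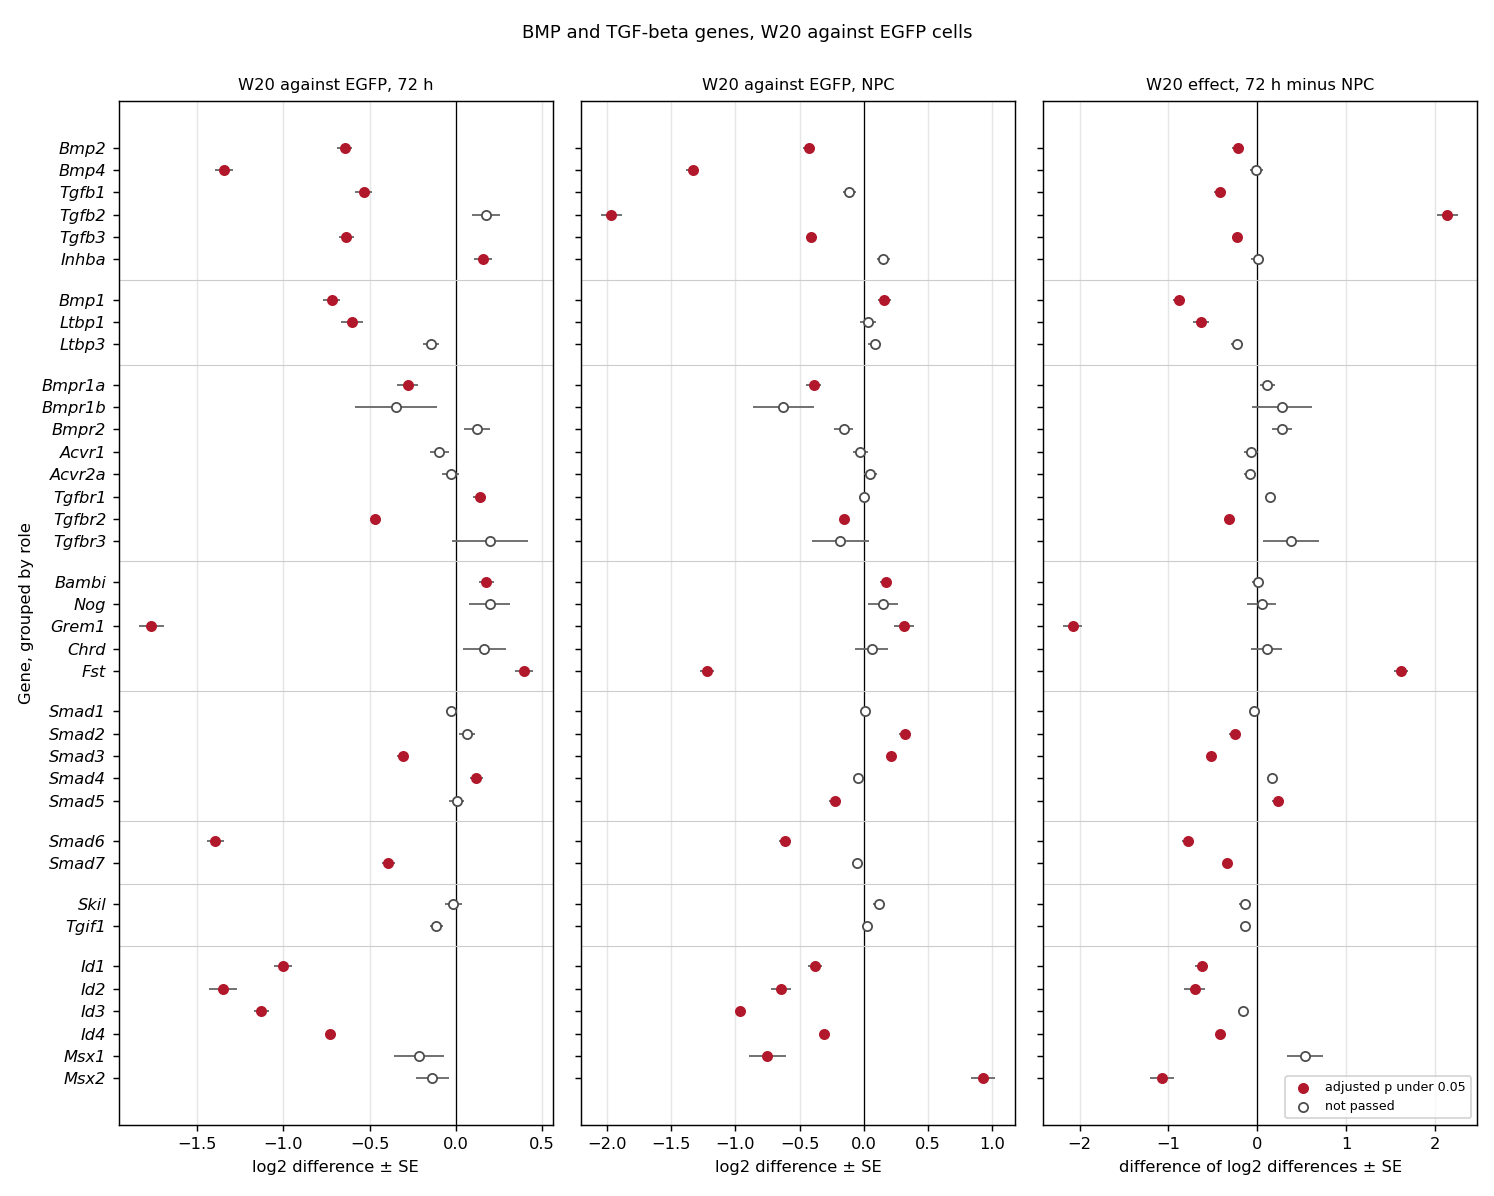
Log2 difference with its SE for each tested gene, grouped by role, for W20 against EGFP cells at 72 h (left) and in NPC (centre) and for the difference of these differences (right). Filled points passed the adjusted p of 0.05. The Id genes, Smad6 and Bmp4 lie left of 0 in the left and centre panels.

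Id2, which encodes an inhibitor of bHLH factors, had scaled log2 signals (log2 signal minus the array's 75th percentile) of -0.17 and -0.27 in W20 cells at 72 h, against 1.25 and 1.01 in EGFP cells at 72 h. In NPC it had 0.25 and 0.28 with W20, against 0.89 and 0.92 with EGFP. Both W20 arrays lay below both EGFP arrays at each stage, and the lowest signals of all were those of W20 cells at 72 h. The log2 difference was -1.35 ± 0.080 (SE, n = 2 per group, adjusted p = 1.43e-04) at 72 h and -0.64 ± 0.080 (adjusted p = 0.00134) in NPC.

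Id3, a close relative of Id2 and a widely used readout of BMP, had signals of 3.69 and 3.59 in W20 cells at 72 h, against 4.77 and 4.76 in EGFP cells. In NPC, Id3 had 3.39 and 3.38 with W20, against 4.33 and 4.37 with EGFP. The groups did not overlap at either stage, and the gap was nearly as wide in NPC as at 72 h. The log2 difference was -1.13 ± 0.042 (adjusted p = 4.58e-05) at 72 h and -0.96 ± 0.042 (adjusted p = 7.95e-05, 1.95-fold) in NPC.

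Id1, likewise induced by BMP, had signals of 1.02 and 0.94 in W20 cells at 72 h, against 2.03 and 1.94 in EGFP cells at 72 h. W20 NPC gave 1.39 and 1.34, against 1.70 and 1.79 in EGFP NPC. At both stages the W20 arrays were the lower ones, without overlap. The log2 difference of Id1 was -1.0 ± 0.052 (adjusted p = 9.89e-05) at 72 h and -0.38 ± 0.052 (adjusted p = 0.00192) in NPC.

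Id4, the member of the family most tied to neural progenitors, had signals of -1.30 and -1.28 in W20 cells at 72 h, against -0.56 on both arrays of EGFP cells. In NPC, Id4 gave 1.06 and 1.04 with W20, against 1.37 and 1.34 with EGFP. W20 arrays were lower at each stage, and all 4 arrays of 72 h cells lay far below all 4 of NPC. The difference was -0.73 ± 0.028 (adjusted p = 4.79e-05) at 72 h and -0.31 ± 0.028 (adjusted p = 5.06e-04) in NPC.

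Smad6, the inhibitory Smad that acts mainly on BMP receptors, had signals of -2.81 and -2.89 in W20 cells at 72 h, against -1.42 and -1.50 in EGFP cells at 72 h. With W20 it had -2.46 and -2.41 in NPC, against -1.83 and -1.81 with EGFP. No W20 array reached an EGFP array of its stage. The log2 difference was -1.39 ± 0.047 (adjusted p = 3.80e-05) at 72 h and -0.62 ± 0.047 (adjusted p = 2.80e-04) in NPC. Smad7, the inhibitory Smad of both branches, fell by 0.39 ± 0.037 (adjusted p = 5.85e-04) at 72 h, while in NPC its difference was -0.06 (adjusted p = 0.251).

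**Figure D2:**
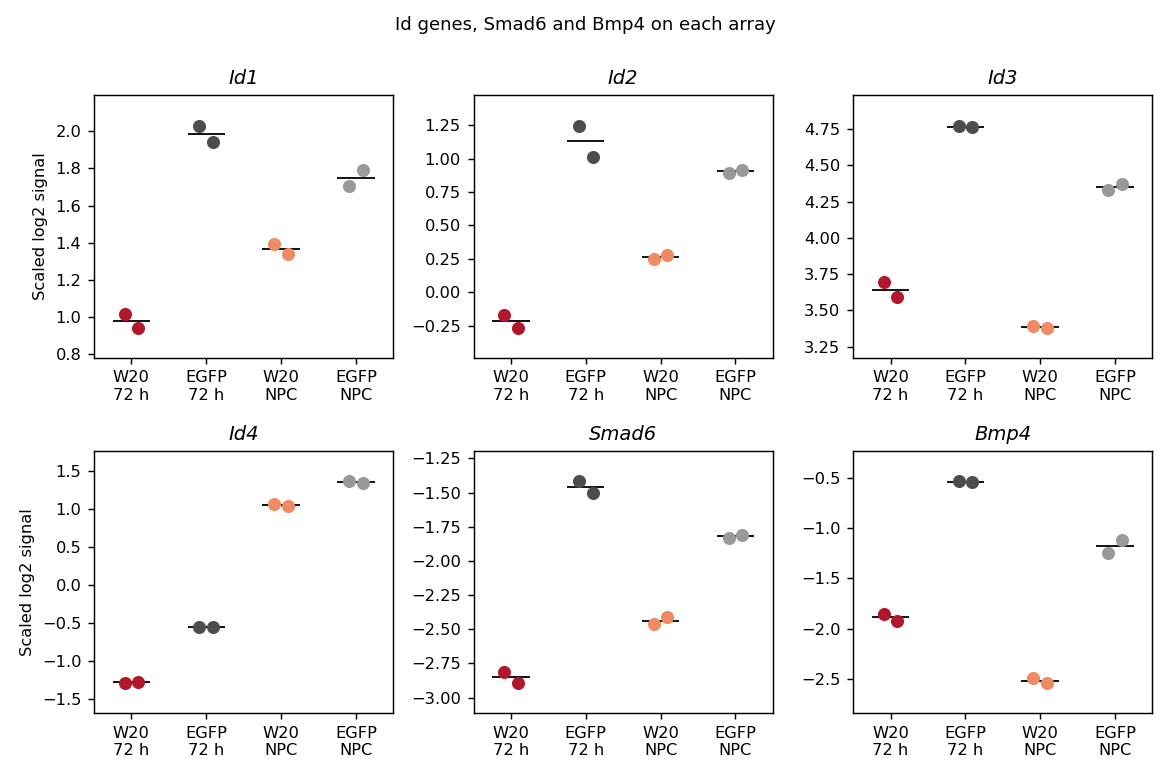
Scaled log2 signal (log2 signal minus the array's 75th percentile) of 4 Id genes, Smad6 and Bmp4 on each array, with group means as bars. In all 6 panels the W20 arrays lie below the EGFP arrays of the same stage. Vertical scales differ between panels and do not start at 0.

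The remaining targets, the homeobox genes Msx1 and Msx2, went separate ways in NPC. Msx1 had signals of -3.74 and -3.29 in W20 NPC, against -2.85 and -2.68 in EGFP NPC, and fell by 0.75 ± 0.145 (adjusted p = 0.00674). Msx2 rose by 0.93 ± 0.095 (adjusted p = 6.89e-04) in NPC, though 1 of 2 EGFP NPC arrays was not well above background and the call ended with normexp background correction (adjusted p = 0.373). At 72 h neither passed, with -0.21 for Msx1 and -0.14 for Msx2, which was not well above background in W20 cells there. Msx1 at 72 h passed, at the same difference, without W20 NPC replicate 1 or without W20 NPC replicate 2 (adjusted p = 0.0480 each). It also passed as lower there in the fit on only the 4 arrays of 72 h (-0.21, adjusted p = 0.0229). Of the 6 targets, then, 4 fell and 0 rose at 72 h, against 24.3% of all genes lower and 28.5% higher, and 5 fell and 1 rose in NPC, against 23.7% lower and 31.8% higher.

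Among the ligands, Bmp4, the BMP ligand known for dorsal neural patterning and gliogenesis, was the most evenly lower. It had signals of -1.85 and -1.92 in W20 cells at 72 h, against -0.53 and -0.55 in EGFP cells. In NPC, Bmp4 had -2.49 and -2.54 with W20, against -1.24 and -1.12 with EGFP. The W20 arrays stood apart from the EGFP arrays by about the same distance at both stages. The log2 difference was -1.35 ± 0.052 (adjusted p = 4.79e-05) at 72 h and -1.33 ± 0.052 (adjusted p = 6.36e-05, 2.52-fold) in NPC.

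Tgfb2, a TGF-beta ligand of the embryonic nervous system, was lower with W20 in NPC and passed no test at 72 h. In NPC it gave -3.14 and -3.27 with W20, against -1.34 and -1.14 with EGFP, a difference of -1.97 ± 0.082 (adjusted p = 7.42e-05, 3.91-fold). At 72 h the signals were -0.43 and -0.36 in W20 cells, against -0.61 and -0.54 in EGFP cells, with a difference of 0.17 ± 0.082 (adjusted p = 0.125). The W20 NPC arrays were thus the only ones far below the others. Tgfb3 fell with W20 at both stages, by 0.64 ± 0.043 at 72 h (adjusted p = 2.12e-04) and by 0.41 ± 0.043 in NPC (adjusted p = 7.74e-04). Tgfb1 fell by 0.53 ± 0.051 at 72 h (adjusted p = 6.07e-04), and in NPC its difference was -0.11 (adjusted p = 0.107).

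Bmp2, the nearest relative of Bmp4, was dim throughout. At 72 h it was at least 1.37-fold lower with W20 (adjusted p = 2.20e-04), since it was not well above background on either W20 array, and that call ended with normexp correction (adjusted p = 0.536). Bmp2 fell by 0.43 ± 0.045 in NPC (adjusted p = 7.30e-04). Inhba, which encodes the activin A subunit, was 0.16 higher at 72 h (adjusted p = 0.0484), a call lost without any 1 of 6 of the 8 arrays (adjusted p 0.0771 to 0.165), the EGFP NPC arrays being the exception. In NPC Inhba had a difference of 0.15 (adjusted p = 0.0501), which passed without EGFP NPC replicate 2 (adjusted p = 0.00998). Among 6 tested ligands, 4 passed as lower and 1 as higher at 72 h, against 24.3% and 28.5% of all genes, counting Bmp2 and Inhba with the limits just given. In NPC 4 were lower and 0 higher, against 23.7% and 31.8% of all genes.

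Proteins that release or hold ligands were lower mainly at 72 h. Bmp1, a protease that cleaves procollagen and the BMP antagonist chordin, had signals of 1.79 and 1.79 in W20 cells at 72 h, against 2.44 and 2.57 in EGFP cells, and fell by 0.72 ± 0.051 (adjusted p = 2.35e-04). In NPC its 2 probes differed in sign, with 0.16 for the brighter probe (adjusted p = 0.0389) and -0.36 for the other, so no direction is given, and the call of the brighter probe ended without any 1 of the 4 NPC arrays or of the W20 arrays at 72 h (adjusted p 0.0609 to 0.161). Ltbp1, which anchors latent TGF-beta in the matrix, fell by 0.60 ± 0.062 at 72 h (adjusted p = 7.92e-04). In NPC it had a difference of 0.03, and its second probe had 0.13. Ltbp3, another latent TGF-beta binding protein, had -0.14 at 72 h (adjusted p = 0.0501) and 0.08 in NPC. The second probe of Ltbp3 had 0.22 in NPC, where the mean of its probes passed as higher (0.15, adjusted p = 0.0395). The 72 h value of Ltbp3 passed on leaving out either W20 NPC array or EGFP at 72 h replicate 1 (adjusted p 0.0452 to 0.0471).

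Receptor genes moved little. Tgfbr2, the type II receptor for TGF-beta, fell at both stages, by 0.47 ± 0.029 at 72 h (adjusted p = 1.57e-04) and by 0.15 ± 0.029 in NPC (adjusted p = 0.00631), and the NPC call ended under 3 other scalings or corrections (adjusted p 0.143 to 0.186). Bmpr1a, a type I receptor for BMP, fell by 0.28 ± 0.061 at 72 h (adjusted p = 0.0116) and by 0.39 ± 0.061 in NPC (adjusted p = 0.00301). Without EGFP at 72 h replicate 1, the 72 h call of Bmpr1a was lost (adjusted p = 0.0612). Tgfbr1, the type I receptor for TGF-beta, was 0.14 higher at 72 h (adjusted p = 0.0225), a call lost without EGFP at 72 h replicate 2 (adjusted p = 0.108) or W20 at 72 h replicate 1 (adjusted p = 0.0938).

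The other receptors passed in neither W20 comparison. Bmpr2 and Acvr2a, both type II receptors, had differences of 0.12 and -0.03 at 72 h and of -0.16 and 0.05 in NPC. The second probe of Acvr2a had -0.23 at 72 h and -0.49 in NPC. Acvr1, a type I receptor, had -0.10 at 72 h, which passed without W20 at 72 h replicate 2 (adjusted p = 0.0180), and -0.03 in NPC. Tgfbr3, the co-receptor betaglycan, was below background in both 72 h groups, where it passed without EGFP at 72 h replicate 2 (adjusted p = 0.0130), and had -0.18 in NPC. Bmpr1b, another type I BMP receptor, was below background in both NPC groups and in W20 cells at 72 h, and its NPC value passed without either W20 array of 72 h (adjusted p = 0.0267 each).

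Of the 5 antagonists and decoy receptors, 2 passed as higher and 1 as lower at each stage. Over all genes, 28.5% were higher and 24.3% lower at 72 h, and 31.8% and 23.7% in NPC. Counts of so few genes do not set this role apart from those shares. The 1 lower in NPC is Fst, which was below background on all 4 NPC arrays. Grem1, which binds and blocks BMP ligands, had signals of -5.95 and -5.77 in W20 cells at 72 h, against -4.06 and -4.13 in EGFP cells. It was not well above background on either W20 array there and so was at least 2.15-fold lower (adjusted p = 5.64e-05). In NPC, Grem1 had -3.01 and -3.04 with W20, against -3.41 and -3.27 with EGFP, a difference of 0.31 ± 0.075 (adjusted p = 0.0149). The direction for Grem1 thus turned between the stages in the main fit. Its NPC call was lost on leaving out either W20 NPC array or EGFP NPC replicate 1 (adjusted p 0.0525 to 0.0707). It also ended with normexp background correction (0.06, adjusted p = 0.636) and with spike-in scaling (adjusted p = 0.115).

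Fst encodes follistatin, which binds activin and some BMPs. Its signals were -3.31 and -3.29 in W20 cells at 72 h, against -3.64 and -3.76 in EGFP cells, and it rose by 0.40 ± 0.054 (adjusted p = 0.00204). In NPC Fst had -7.40 and -7.48 with W20, against -6.25 and -6.18 with EGFP, and none of these arrays was well above background, so no fold is given although the fit passed (adjusted p = 7.95e-05). Bambi, a membrane protein that resembles a type I receptor without its kinase, was 0.18 ± 0.043 higher at 72 h (adjusted p = 0.0175) and 0.17 ± 0.043 higher in NPC (adjusted p = 0.0184). At 72 h the Bambi call was lost without EGFP at 72 h replicate 2 (adjusted p = 0.0872) or W20 at 72 h replicate 1 (adjusted p = 0.0668), and in NPC without any 1 of the 4 NPC arrays (adjusted p 0.0667 to 0.0765). Nog and Chrd, which encode the BMP antagonists noggin and chordin, passed at neither stage, with 0.20 and 0.17 at 72 h and 0.15 and 0.06 in NPC.

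The Smads that carry the signal changed less than Smad6. Smad3 had signals of 0.30 and 0.34 in W20 cells at 72 h, against 0.62 and 0.64 in EGFP cells, and fell by 0.31 ± 0.033 (adjusted p = 8.74e-04). Its second, dimmer probe had a difference of 0.09 there. In NPC Smad3 rose by 0.22 ± 0.033 (adjusted p = 0.00278), and the second probe was higher by 0.43. Smad2 rose by 0.32 ± 0.047 in NPC (adjusted p = 0.00245), with 0.07 at 72 h. Smad5 fell by 0.23 ± 0.046 in NPC (adjusted p = 0.00795), with 0.01 at 72 h. Its 3 probes differed in sign in NPC, from -0.23 to 0.10, and spike-in scaling ended the NPC call (adjusted p = 0.107).

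Smad4, the common partner, was 0.12 ± 0.038 higher at 72 h (adjusted p = 0.0411), and this call was lost without any 1 of 7 of the 8 arrays (adjusted p 0.0663 to 0.162), W20 at 72 h replicate 2 being the exception. Its 2 probes differed in sign at 72 h, with 0.12 for the brighter and -0.05 for the other. The mean of its probes gave 0.04 there (adjusted p = 0.421). In NPC the difference of Smad4 was -0.05. Smad1, a receptor-regulated Smad of the BMP branch, had -0.03 at 72 h and 0.01 in NPC. The nuclear corepressors Skil, which encodes SnoN, and Tgif1 had -0.01 and -0.11 at 72 h and 0.12 and 0.03 in NPC, and neither passed. The second probe of Skil had 0.42 in NPC and 0.06 at 72 h. In NPC Skil passed as higher with the mean of its probes (0.27, adjusted p = 8.86e-04) and with median scaling (adjusted p = 0.0363). Tgif1 at 72 h passed without EGFP at 72 h replicate 1 (adjusted p = 0.0408).

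Whether the W20 difference itself depended on the stage was tested as the W20 effect at 72 h minus that in NPC. Of 37 members, 15 were lower and 3 higher by this test, against 16.8% and 14.1% of all genes, or 30.9% either way. Among the targets, the drop with W20 was deeper at 72 h for Id1 (-0.62 ± 0.074, adjusted p = 0.00262), Id2 (-0.71 ± 0.113, adjusted p = 0.00729) and Id4 (-0.42 ± 0.040, adjusted p = 0.00132). Smad6 showed the same, with -0.78 ± 0.066 (adjusted p = 9.26e-04). Bmp4 had -0.01 ± 0.074 (adjusted p = 0.911) and Id3 -0.16 ± 0.060 (adjusted p = 0.0918), and without W20 at 72 h replicate 1 Id3 passed (adjusted p = 0.0368).

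Tgfb2 had a difference of effects of 2.14 ± 0.115 (adjusted p = 2.78e-04). For Fst and Grem1 the test also passed (adjusted p = 2.46e-04 each), but Fst was below background on all 4 NPC arrays and Grem1 on both W20 arrays of 72 h, so no size is given. Bmp1 had -0.88 ± 0.072 (adjusted p = 8.12e-04) with its brighter probe and -0.13 with the other. Smad3 had -0.52 ± 0.046 (adjusted p = 0.00104) and -0.34 with its second probe. The calls of Bmp2 (-0.22), Tgfb3 (-0.23), Smad2 (-0.25) and Smad5 (0.23) were each lost on leaving out any 1 of 6 or 7 of the arrays. Across those losses, the adjusted p lay between 0.0617 and 0.136. The 3 probes of Smad5 differed in sign here, from -0.07 to 0.23.

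**Figure D3:**
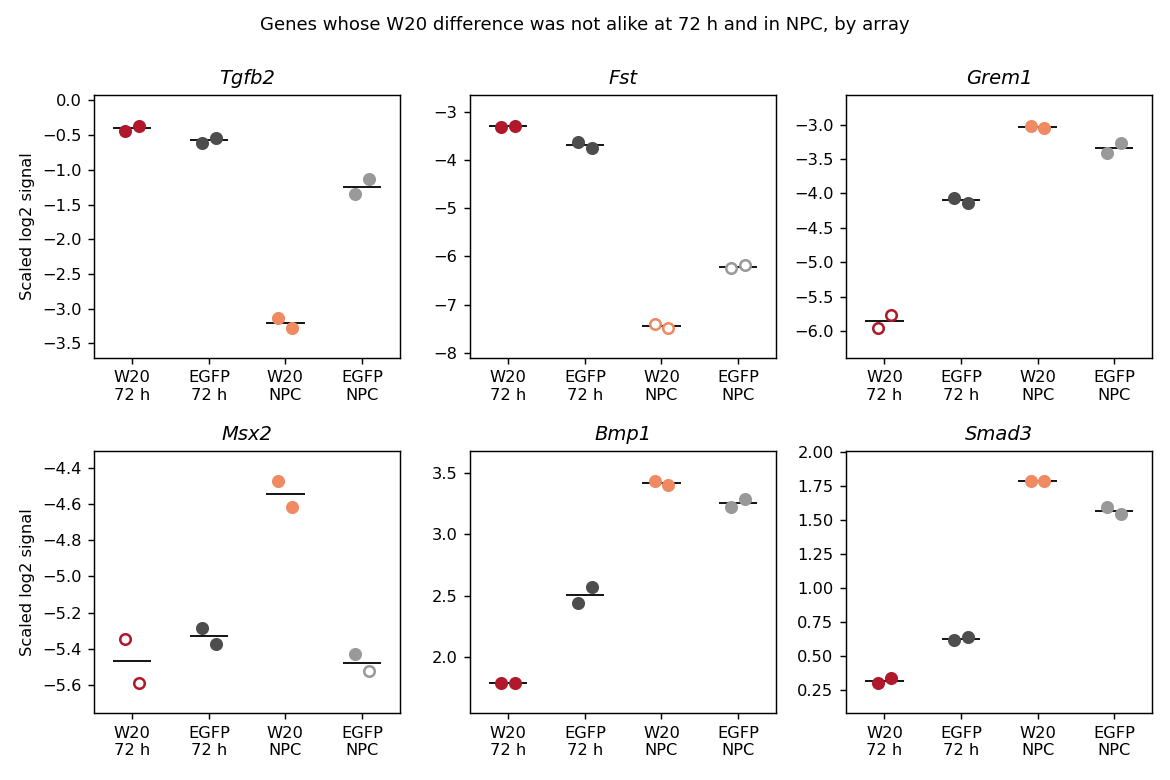
Scaled log2 signal on each array for 6 genes whose W20 difference was not alike at 72 h and in NPC, with group means as bars. Open points are arrays where the probe was not well above background. Tgfb2 is low in W20 NPC, while Grem1 is lowest in W20 cells at 72 h. Vertical scales differ between panels and do not start at 0.

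Between NPC and 72 h, most members changed in both kinds of cells. All NPC arrays were on 1 slide and all 72 h arrays on another, so stage and slide cannot be told apart in what follows. The same holds for the W20 effect at 72 h minus that in NPC, though each W20 difference in it was taken within 1 slide. The comparisons over the 72 h in W20 and in EGFP cells share no array with each other, but both share arrays with the W20 comparisons above. With W20, 14 members passed as higher, 20 as lower and 3 did not pass, against 37.5% of all genes higher, 37.2% lower and 74.7% either way. The 14 include Bmpr1b, which was below background on all 4 W20 arrays and so has no fold there. With EGFP, 16 rose, 15 fell and 6 did not pass, against 36.0% higher, 33.9% lower and 69.9% either way.

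Storage proteins and Id4 showed large drops at 72 h. Ltbp1 fell by 2.30 ± 0.062 with W20 and by 1.66 ± 0.062 with EGFP (adjusted p = 1.16e-06 and 5.85e-06). For Ltbp3 the drops were close to each other, and it fell by 2.22 ± 0.048 with W20 and by 1.99 ± 0.048 with EGFP (adjusted p = 5.82e-07 and 1.52e-06). Id4 fell by 2.33 ± 0.028 with W20 and by 1.91 ± 0.028 with EGFP (adjusted p = 1.46e-07 and 3.97e-07). Also lower at 72 h in both were Bmp1, Bmp2, Tgfb1, Tgfb3, Bmpr1a, Tgfbr3, Grem1, Smad3, Smad5, Smad7, Skil and Tgif1.

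Fst, below background in NPC, was at least 4.37-fold higher at 72 h with W20 and at least 3.81-fold higher with EGFP (adjusted p = 1.72e-07 and 1.02e-06). Tgfb2 rose by 2.81 ± 0.082 with W20, a 7.0-fold difference, and by 0.67 ± 0.082 with EGFP (adjusted p = 1.45e-06 and 6.31e-04). Inhba rose by 0.98 ± 0.053 in both (adjusted p = 1.45e-05 and 2.13e-05), Bambi by 0.76 and 0.75, Tgfbr1 by 0.95 and 0.81, and Bmp4 by 0.63 and 0.64, each with W20 and then with EGFP. Acvr1, Acvr2a, Smad1, Smad4 and Id3 were also higher at 72 h in both.

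For 3 members the stage difference ran opposite ways. Smad6 fell by 0.42 ± 0.047 with W20 (adjusted p = 3.67e-04) and rose by 0.36 ± 0.047 with EGFP (adjusted p = 8.04e-04). Id1 fell by 0.39 ± 0.052 with W20 (adjusted p = 8.54e-04) and rose by 0.24 ± 0.052 with EGFP (adjusted p = 0.00774). Id2 fell by 0.48 ± 0.080 with W20 (adjusted p = 0.00214), and its rise of 0.22 ± 0.080 with EGFP (adjusted p = 0.0470) was lost without any 1 of 7 of the 8 arrays, EGFP at 72 h replicate 2 being the exception (adjusted p 0.0621 to 0.149). The tests of the W20 effect given above for Id1, Id2 and Smad6 are also the tests of these differences between W20 and EGFP cells. In EGFP cells these 3 genes thus stood highest at 72 h, and in W20 cells they stood lowest there.

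A few stage calls were less firm. With W20, Smad5 fell by 0.14 (adjusted p = 0.0335), a call lost without any 1 of 5 arrays, among them both of EGFP NPC and both of W20 NPC (adjusted p 0.0564 to 0.145). Bmpr2 rose by 0.30 with W20 (adjusted p = 0.0137), and the call ended without replicate 2 of W20 cells at 72 h (adjusted p = 0.0631) and without replicate 1 of W20 NPC (adjusted p = 0.0688). Msx1 rose by 0.54 with W20 (adjusted p = 0.0154), a call lost without either W20 array of 72 h (adjusted p = 0.0557 and 0.0607). With EGFP, Smad2 rose by 0.16 (adjusted p = 0.0258), a call lost without EGFP at 72 h replicate 1 or EGFP NPC replicate 2 (adjusted p = 0.125 and 0.122). Bmpr1b, at least 1.12-fold higher with EGFP (adjusted p = 0.0235), lost its call without EGFP at 72 h replicate 1, EGFP at 72 h replicate 2 or EGFP NPC replicate 2 (adjusted p 0.0686 to 0.113), and with W20 it was below background at both stages. Noggin and chordin RNA passed in neither, but Chrd with W20, at 0.30 (adjusted p = 0.0715), passed without W20 NPC replicate 2 (adjusted p = 0.0240).

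**Figure D4:**
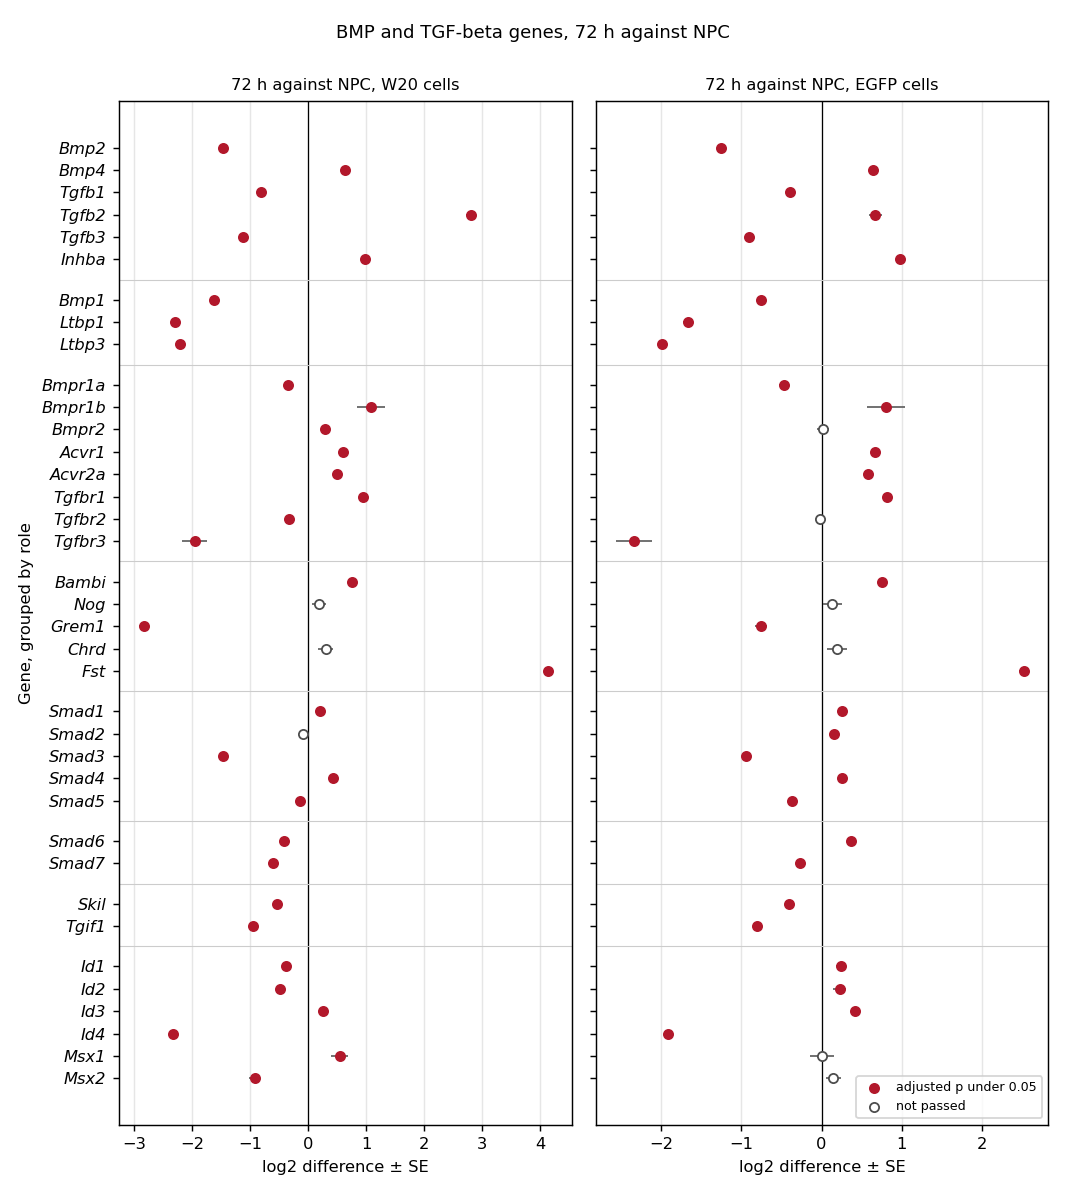
Log2 difference with its SE for each tested gene between 72 h and NPC, in W20 cells (left) and EGFP cells (right). Filled points passed the adjusted p of 0.05. Ltbp1, Ltbp3 and Id4 lie far left and Fst far right in both panels, and Smad6, Id1 and Id2 lie on opposite sides of 0 in the panels.

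A wider list of 66 other pathway genes, of which 50 were tested, was set beside the same shares of all genes. At 72 h, 10 passed as higher, 22 as lower and 18 did not pass, against 28.5% of all genes higher and 24.3% lower. In NPC the counts were 13 higher, 22 lower and 15 not passing, against 31.8% of all genes higher and 23.7% lower. The NPC counts include Bmp6 among the higher and Acvr2b among the lower, both below background on all 4 NPC arrays. Gdf15, a stress-induced distant member of the TGF-beta family, rose by 2.65 ± 0.076 at 72 h (adjusted p = 2.87e-05) and by 1.57 ± 0.076 in NPC (adjusted p = 9.28e-05). Inha, the inhibin alpha subunit, was at least 1.89-fold lower at 72 h (adjusted p = 4.53e-04) and fell by 1.61 ± 0.173 in NPC (adjusted p = 8.07e-04).

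At 72 h, Ltbp2 was at least 3.39-fold lower with W20 (adjusted p = 2.70e-04), and Atoh8, a bHLH factor that BMP induces, fell by 1.22 ± 0.062 (adjusted p = 9.40e-05). Acvr1c, the type I receptor ALK7, rose by 0.67 ± 0.069 there (adjusted p = 7.72e-04). Nedd4l, a ubiquitin ligase that acts on Smads, was 0.57 ± 0.148 higher (adjusted p = 0.0212), a call lost without EGFP at 72 h replicate 1 or EGFP at 72 h replicate 2 (adjusted p = 0.0823 and 0.0745). In NPC, Sostdc1, a secreted BMP antagonist, was at least 6.75-fold lower with W20 (adjusted p = 5.80e-05). Bmper, which binds BMP outside the cell, rose by 0.59 ± 0.048 (adjusted p = 3.39e-04). Pmepa1, a TGF-beta target that restrains Smad signalling, rose by 0.62 ± 0.058 (adjusted p = 5.28e-04) with its brighter probe, and its other probe had -0.36.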

How the data were processed

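RNA of 8 samples, in 4 groups of 2, was labelled with Cy3 and hybridised to 1-colour Agilent whole mouse genome arrays. The deposited scanner files hold spot intensities from Agilent's Feature Extraction, version 10.7.3.1 per the file headers, and the processed signal used here was already corrected for background. Each array had 45018 spots, 43379 of them not controls, and 0 were saturated, while 95 to 137 outlier spots an array were left out. The 75th percentile of the intensity was 827 to 938 units. The number of arrays limits the precision.

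Signals were taken as log2, each array's 75th percentile was subtracted, and repeat spots of 1 probe were averaged. Probe accessions were matched to RefSeq genes of GRCm38.p6, which gave 27576 of 41174 probes a symbol. The brightest probe over the 8 arrays stood for a gene and was kept where 1 or more groups had it well above background on both of their arrays. For 14 members 2 or more probes passed, and 0 of these had called probes of both signs in a fit that held all probes.

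With limma 3.58.1 (R 4.3.3), group means were fitted by lmFit to the 8 arrays together, then contrasts and eBayes were applied (with 4 residual and 1.755 prior degrees of freedom). Benjamini-Hochberg adjusted, two-sided p-values cover all 13613 genes, with a threshold of 0.05. Of 5 comparisons, 2 set W20 against EGFP, 2 compare 72 h with NPC, and the last subtracts the W20 effect in NPC from that at 72 h. A difference is a log2 value ± SE with n = 2 per group. "At least N-fold" sets the bright group's mean against, per array of the dim group, the larger of the probe's own signal and the array's lowest signal among probes well above background. The fit was tested on simulated data.

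The deposited value table holds the authors' processed log2 values, with centring unstated. Its NPC columns matched their own arrays within 0.01 log2 units for 99.7% to 99.8% of the probes after a shift, and its columns for replicate 1 at 72 h equalled means of NPC columns, so the table served only as an alternative for NPC. Replicate numbers are shared by the groups, but the labels do not say that they pair samples. All 39 members are named, with the signals of each array for those that differed at least 2-fold in a W20 comparison and for Id4 (other members with signals were added after their values were seen), and of the wider list the 3 largest differences in each direction, of which 1 is not reported here. The members, lists and tests were chosen with earlier results of these data known. Alternatives were another background correction, 3 other scalings, other filters, the mean of a gene's probes, fits on 4 arrays, a replicate block and leaving out each array.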

Additional observations from a re-analysis of the deposited data

Results flagged for a closer look

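For 18 members the W20 difference itself differed between 72 h and NPC (limma, adjusted p under 0.05 over all genes), as the effect at 72 h minus that in NPC, where 30.9% of all genes passed either way. Among the targets these were Id1 (-0.62), Id2 (-0.71), Id4 (-0.42) and Msx2 (-1.07), and among the inhibitory Smads they were Smad6 (-0.78) and Smad7 (-0.34). Ligands with such a difference were Bmp2 (-0.22), Tgfb1 (-0.42), Tgfb2 (2.14) and Tgfb3 (-0.23). Of the storage and processing proteins, Bmp1 had -0.88 and Ltbp1 -0.63, and of the receptors Tgfbr2 had -0.32. The antagonists Grem1 and Fst had fitted values of -2.08 and 1.62, which hold no exact size because Grem1 was below background on both W20 arrays of 72 h and Fst on all 4 NPC arrays. The signal-carrying Smads had -0.25 for Smad2, -0.52 for Smad3 and 0.23 for Smad5, whose 3 probes ran from -0.07 to 0.23. Values of Bmp2 and Msx2 rest in part on a group in which the probe was not well above background. The calls of Bmp2, Tgfb3, Smad2 and Smad5 were lost on leaving out any 1 of 6 or 7 of the arrays (adjusted p 0.0617 to 0.136).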

How the results depend on the processing

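Id1, Id2, Id3, Id4, Smad6, Bmp4 and Tgfb3 kept their direction and their call in both W20 comparisons under every alternative run, 17 at 72 h and 18 in NPC. The fits on only the 4 arrays of 1 slide are the values within a slide, and slide could not be added as a term because the slides coincide with the stages. The number of members higher with W20 at 72 h (5) was 3 under normexp, quantile scaling or no filter for dim probes, 2 with the mean of a gene's probes and with only the 4 arrays compared, 1 with median scaling and 1 with spike-in scaling, and 1 to 4 with 1 array left out. In NPC that number (6) was 3 with normexp, 2 with spike-in scaling, and 3 to 6 with 1 array left out. Leaving out 1 array gave, over all genes, 2770 to 3690 higher at 72 h (3874) and 3138 to 4317 in NPC (4330). With spike-in scaling the members with a lower W20 effect at 72 h than in NPC (15) were 8. Over all genes, spike-in scaling gave 1661 higher and 2038 lower at 72 h (3874 and 3314), 1985 higher and 2151 lower in NPC (4330 and 3232), and 814 and 790 for the difference of effects (1915 and 2293), where median scaling gave 1155 higher. The cause of these shifts was not tested.

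Among values called before or after the change of setting, 4 changed sign: Bmpr1b at 72 h against NPC with EGFP (-0.17, adjusted p = 0.109) and the difference of effects for Bmp2 (0.25, adjusted p = 0.0766) with normexp, and Acvr2a (-0.22, adjusted p = 0.0174) and Bmp1 (-0.10, adjusted p = 0.174) for W20 in NPC with the mean of probes. Values called in neither setting also crossed 0, such as Bmpr1b (-0.66 to 0.10) and Msx2 (-0.26 to 0.11) for W20 at 72 h and Chrd (-0.09 to 0.21) for W20 in NPC. Normexp also ended the difference of effects for Msx2 (adjusted p = 0.947) and Grem1 (adjusted p = 0.0514), and spike-in scaling that of Id4 (adjusted p = 0.0937), Smad7 (adjusted p = 0.193), Tgfb1 (adjusted p = 0.0946) and Tgfbr2 (adjusted p = 0.192). Smad3 at 72 h ended with the mean of probes (adjusted p = 0.120). With that mean, the difference of effects passed for Ltbp3 (-0.29, adjusted p = 0.0259) and Skil (-0.25, adjusted p = 0.00876). Fit with the replicate number as a block, 5 members were higher and 16 lower with W20 at 72 h, 7 and 16 in NPC, and 4 and 13 for the difference of effects. Over the 72 h it gave 15 and 20 with W20 and 18 and 15 with EGFP. No share of all genes is given for this fit, so these counts show nothing particular to the members. The labels do not say whether the numbers pair arrays, and the deviations of same-numbered arrays correlated at -0.09 to 0.15, above 0.1 in 3 of 6 pairs of groups, so pairing was not shown. Dim probes limit Bmp2, Grem1, Fst, Msx2, Bmpr1b and Tgfbr3.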
